A study of Arabidopsis thaliana with 15 samples.

Results

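The comparison set leaf disks of Arabidopsis thaliana after 48 h of culture against disks after 12 h. Its members were 6 of the 15 samples in the series, the 3 whose titles give 48 h and the 3 whose titles give 12 h. All disks were 1 mm in diameter and came from rosette leaves of Col-0 seedlings that had grown for 25 days in continuous light. Both groups were in the same induction medium, which held 2,4-D at 1.25 mg/L, kinetin at 0.25 mg/L and bikinin at 10 µM. 2,4-D is a synthetic auxin, kinetin is a cytokinin, and bikinin switches on brassinosteroid responses by inhibiting GSK3-type kinases. The comparison therefore shows what differed between a late and an early time under the same compounds, and cannot tell their effect apart from culture or elapsed time, since cultured disks without the compounds were not analysed here. Fresh leaf at 0 h was left out of the contrast, as were 24 h and 36 h, although all 15 arrays entered the fit. The titles number the replicates without saying that they were separate cultures, so the p-values rest on a spread between samples that may be technical.

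Xylem vessel cells carry water, and each one differentiates by a fixed sequence of steps. A cell lays down a patterned secondary wall of cellulose, xylan and lignin under the guidance of cortical microtubules. It then dies, and proteases and nucleases clear its contents, leaving a hollow tube. In leaf-disk cultures of this kind mesophyll cells are thought to pass through a dividing, procambium-like state before they become xylem. Each sample was whole disks, so fewer cells of a type and less RNA per cell cannot be told apart.

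Each sample gave 1 Affymetrix array, and the values are signals on a linear scale. Within a time, pairs of arrays had r = 0.885 to 0.947 over probe sets that were not dim. A 48 h array and a 12 h array correlated at 0.714 to 0.831, and no array stood apart from its group. Of 22746 probe sets, 13513 were paired with a single gene in the annotation, and the genes below come from these. For most loci that annotation holds a locus tag and no name, so many familiar xylem genes were not looked up here. A list's measured genes below are those that this annotation could match to it, and others may be on the array unnamed. A group mean below a signal of 34.2, the percentile 30 of all group means, is called dim here. Folds against dim signals are uncertain in size. That also holds for genes below that carry no remark but whose printed signals average under this level. Among them are NET3C, TBL34, AT4G04460 and IAA29 at 12 h, and UGT73C1 and SWEET4 at 48 h.

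Much of the measured transcriptome differed between the late and the early disks. limma called 3966 probe sets at an adjusted p under 0.05, which is 17.4% of those tested. Of these, 2514 (11.1%) were higher and 1452 (6.38%) were lower at 48 h, and the same scale gave a median log2 change of 0.01 over all probe sets. At least 16-fold changes were called higher in 354 probe sets and lower in 85, and at least 32-fold changes in 138 and 26. Among the called probe sets, 458 of the higher ones had a dim mean at 12 h and 233 of the lower ones had a dim mean at 48 h. With the replicate number as a block, over the 11 arrays of cultured disks that carry a number, 6026 were called (26.5%), 3460 higher (15.2%) and 2566 lower (11.3%). The direction split depended on the scaling. The median array signal lay 0.27 higher in log2 at 48 h, and after centring every array on its median 1665 were called higher (7.32%) and 2559 lower (11.3%). Higher calls then made up 39.4% of all calls, against 63.4% as deposited and 53.9% after quantile normalization. Without 48 h replicate 1 the count fell to 2348, with 1600 higher and 748 lower, and without 48 h replicate 2 the lower calls fell to 965. Changes near 0.27 therefore have no settled direction, and the genes described below mostly changed by far more.

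**Figure D1:**
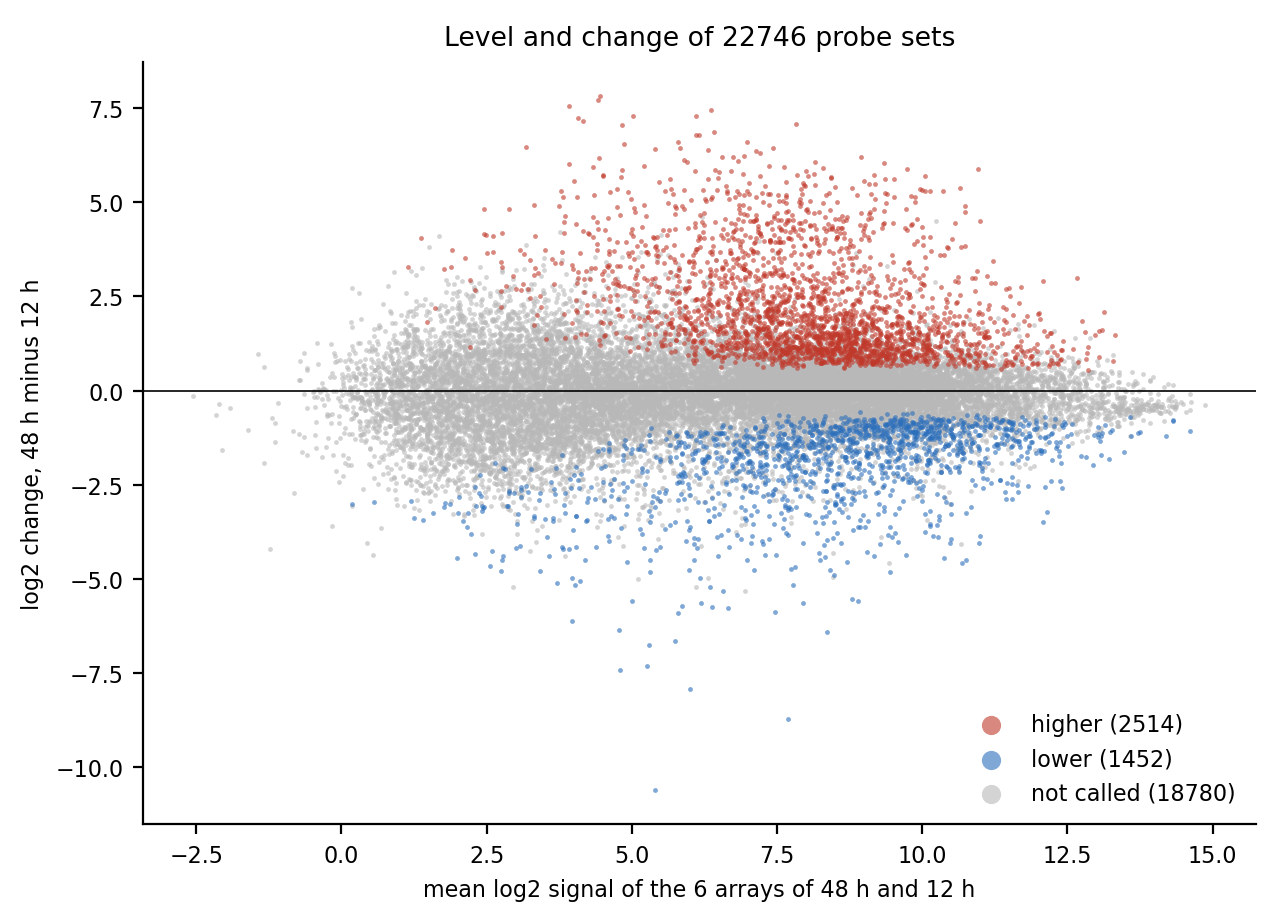
Each point is 1 of 22746 probe sets, with its mean log2 signal over the 6 arrays on the x axis and its log2 change, 48 h minus 12 h, on the y axis. Red points were called higher (2514), blue points lower (1452) and grey points were not called. The higher calls extend to a log2 change of 7.81 and the lower ones to -10.60, and the grey cloud is widest at low signals.

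The secondary wall genes that could be matched were higher at 48 h. Of 55 names written, 4 were measured, and all 4 were called higher, beside 11.1% of all probe sets. Their median log2 change was 3.59. They were IRX15, GUT2 and a relative of each, so the list's other wall genes were not read here. IRX15, which encodes a protein needed for normal xylan, had signals of 737, 675 and 842 at 48 h, against 4.31, 4.81 and 14.9 at 12 h. It was near the bottom of the scale in every early disk and well above it in every late one, and its log2 change was 6.79 ± 0.84 (SE over the fit, n = 3 arrays per time, adjusted p = 0.000364). Its homologue IRX15-L had 1859, 1443 and 1371 at 48 h, against 202, 46.8 and 146 at 12 h. The groups were again far apart, with a change of 3.79 ± 0.62, adjusted p = 0.00164. GUT2, a subunit of the xylan backbone synthase also called IRX10, had 1582, 974 and 1005 at 48 h, against 123, 133 and 83.9 at 12 h (change 3.38 ± 0.46, adjusted p = 0.000591). The related GUT1 was already well expressed early, with signals of 889, 587 and 823 at 48 h, against 405, 466 and 468 at 12 h, and changed by only 0.76 ± 0.21 (adjusted p = 0.0291). That last call was lost when any array but 48 h replicate 2 was left out (log2 changes 0.64 to 0.80). Most of the increase in mean signal of the first 3 genes lay between 24 and 36 h. Over 12, 24, 36 and 48 h the mean signals of IRX15 were 8.0, 45.6, 464 and 751, and those of GUT2 were 113, 179, 896 and 1187. IRX15, IRX15-L and GUT2 were also the only xylem vessel markers matched by name, 3 of 18 written. They are the same genes as above and add no further evidence. The other written vessel markers were not matched by name and may be on the array under a locus tag. The summed signal of these 3 genes ranged from 3092 to 4178 at 48 h and from 185 to 329.5 at 12 h.

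Of the 3 measured xylem regulators, 2 were called higher, beside 11.1% of all probe sets. AT1G66810, listed as the zinc-finger gene C3H14, had signals of 673, 401 and 307 at 48 h, against 21.4, 26.4 and 53.3 at 12 h (change 3.81 ± 0.60, adjusted p = 0.00134). PHV, a class III HD-ZIP factor that patterns vascular tissue, had 614, 884 and 1059.6 at 48 h, against 456, 464 and 306 at 12 h, a change of 1.05 ± 0.26, adjusted p = 0.0147. Its call was lost without 48 h replicate 2 (1.01) or 48 h replicate 3 (0.88) or 12 h replicate 3 (0.85). LHW, a bHLH factor that promotes vascular divisions, had 477, 587 and 859 at 48 h, against 510.0, 288 and 246 at 12 h, and its change of 0.91 ± 0.42 did not pass (adjusted p = 0.162).

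Of 8 measured lignin genes, 1 was called higher and 1 lower, and the median change was -0.83. With 11.1% and 6.38% of all probe sets called in those directions, these counts are no result about the list. The replicate block called 3 lower, and leaving out 12 h replicate 3 gave 2 higher and 0 lower, leaving out 12 h replicate 1 gave 2 lower and leaving out 12 h replicate 2 gave 0 lower. AT5G51890 was among the clearest changes of the comparison, with signals of 11969, 7419.7 and 7829.5 at 48 h, against 442, 301 and 269 at 12 h (change 4.75 ± 0.37, adjusted p = 0.000125). CCR2, a cinnamoyl-CoA reductase gene of monolignol synthesis, went the other way, with 21.6, 10.1 and 23.2 at 48 h, against 89.0, 353 and 564 at 12 h (change -3.92 ± 0.97, adjusted p = 0.016). That call was lost without 48 h replicate 2 (-3.54) or 12 h replicate 2 (-3.70) or 12 h replicate 3 (-3.37). HCT, an enzyme of the shared monolignol pathway, was level at 2219, 2022 and 1802 at 48 h, against 1512, 2215 and 2434 at 12 h (change -0.0 ± 0.28, adjusted p = 0.995). The peroxidase gene PRX52 had 109, 142 and 343 at 48 h, against 379, 762 and 1037 at 12 h, and the groups did not overlap, yet its change of -1.94 ± 1.17 did not pass (adjusted p = 0.295), while with the replicate block its adjusted p was 0.0179.

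Among 6 measured genes of xylem cell death, 3 were higher and 1 lower at 48 h, beside 11.1% and 6.38% of all probe sets. AT4G04460 had signals of 819, 540.4 and 754 at 48 h, against 18.6, 22.5 and 33.0 at 12 h (change 4.85 ± 0.71, adjusted p = 0.000931). scpl48, a serine carboxypeptidase gene known from xylem, had 5481, 9286 and 9428 at 48 h, against 615, 567 and 1069 at 12 h, and every late array exceeded every early one by a wide margin (change 3.44 ± 0.29, adjusted p = 0.000125). The vacuolar processing enzymes, proteases that act in the vacuole and in cell death, moved apart. GAMMA-VPE had 1584, 2335 and 2526 at 48 h, against 368, 429 and 870.2 at 12 h (change 2.03 ± 0.44, adjusted p = 0.00779). BETA-VPE had 299, 585 and 470.1 at 48 h, against 3229, 1836 and 2054 at 12 h, the opposite direction, with a change of -2.40 ± 0.53, adjusted p = 0.00917. ALPHA-VPE was dim at 12 h, with 36.3, 59.7 and 42.0 at 48 h, against 17.8, 3.82 and 5.9 at 12 h, and did not pass (2.61 ± 0.99, adjusted p = 0.0931), nor did DELTA-VPE, with a change of -0.30 ± 0.58.

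In the serine carboxypeptidase-like family, of which scpl48 is a member, 10 of 29 measured genes were dim at both times. Of the 29, 5 were called higher and 1 lower (median change 0.33). With 11.1% and 6.38% of all probe sets called in those directions, these counts are no result about the family. scpl20 had 8142, 5631 and 6229.6 at 48 h, against 798, 1063 and 889 at 12 h (change 2.85 ± 0.45, adjusted p = 0.00132), and SCPL34 changed by 2.14 ± 0.48, adjusted p = 0.00932. SCPL45 changed by 2.99 ± 0.70, adjusted p = 0.0118, a call lost without 48 h replicate 1 (2.55). SCPL43 changed by 1.42 ± 0.43, a call lost when any array but 48 h replicate 3 was left out (log2 changes 1.07 to 1.53). The 1 lower gene was scpl50, with signals of 63.6, 75.8 and 41.9 at 48 h, against 809, 347 and 148 at 12 h (change -2.56 ± 0.52, adjusted p = 0.00584). The replicate block called 8 higher and 2 lower. Without 48 h replicate 1 the higher count was 3, and without 48 h replicate 3 the lower count was 3. Autophagy genes, whose products recycle cell contents through the vacuole, were listed after values were seen. All 8 measured members had changes above 0, and 3 were called higher, beside 11.1% of all probe sets. The lowest change, 0.17, is under the 0.27 shift between array medians, so its direction depends on the scaling. Median centring called 2 higher and gave a median of 0.46, against 0.73. ATG8F, which encodes a protein of the autophagosome membrane, had 2306, 2372 and 1737 at 48 h, against 455, 1108 and 742 at 12 h (change 1.56 ± 0.34, adjusted p = 0.00921). ATG8E changed by 1.97 ± 0.48, a call lost without 48 h replicate 1 (1.89) or 48 h replicate 2 (1.64) or 12 h replicate 1 (1.65), and ATG3, the conjugating enzyme that attaches ATG8 to lipid, changed by 0.94 ± 0.23, a call lost without 48 h replicate 1 (0.89) or 12 h replicate 1 (0.77). The count was 1 without 48 h replicate 1 or without 12 h replicate 1.

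Several other families that act on wall polysaccharides were measured, and changes within each were uneven. TBL proteins acetylate wall polymers, and TBL34 and TBL35 act on xylan. Of 22 measured TBL genes, 6 were higher and 2 lower at 48 h, beside 11.1% and 6.38% of all probe sets. Their median change was 0.66, and 7 of the 22 were dim at both times. TBL34 had signals of 1047, 613 and 489.9 at 48 h, against 1.94, 22.7 and 39.9 at 12 h (change 5.82 ± 0.91, adjusted p = 0.00133), and TBL35 had 163, 111 and 144 at 48 h, against 39.7, 34.8 and 42.7 at 12 h (change 1.82 ± 0.25, adjusted p = 0.000644). Both showed a wide gap between the groups. TBL36 changed by 3.21 ± 0.98, a call lost when any array but 48 h replicate 3 was left out (log2 changes 2.48 to 3.53), and TBL39 by 3.08 ± 0.76, a call lost without 48 h replicate 1 (2.96) or 48 h replicate 2 (2.72) or 12 h replicate 3 (2.34). TBL23 was also higher (1.49 ± 0.31, adjusted p = 0.00649), as was TBL21, which stayed dim at both times (1.82 ± 0.42). The lower pair was TBL37 (-1.17 ± 0.36, lost when any array but 12 h replicate 2 was left out (log2 changes -1.34 to -0.81)) and TBL41 (-1.45 ± 0.34, lost without 48 h replicate 2 (-1.14)).

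Of 24 measured genes that remodel xyloglucan and glucans, 5 were called higher and 0 lower (median 0.73), beside 11.1% and 6.38% of all probe sets. Of the 24, 8 were dim at both times. Of the 5 called, 4 belong to the GH9B endoglucanase family. GH9B8 had 1132, 1657 and 2838 at 48 h, against 218, 119 and 89.7 at 12 h (change 3.72 ± 0.65, adjusted p = 0.00241). GH9B6 had 349, 264 and 357 at 48 h, against 61.4, 18.0 and 54.8 at 12 h (change 3.03 ± 0.51, adjusted p = 0.00204), and GH9B7 changed by 1.82 ± 0.31, adjusted p = 0.00224. GH9B17 was dim at 12 h and changed by 3.61 ± 1.02, a call lost when any array but 48 h replicate 3 or 12 h replicate 3 was left out (log2 changes 3.26 to 3.46). XTH20, a xyloglucan endotransglucosylase gene, had 318, 1412 and 1999 at 48 h, against 88.0, 40.3 and 48.2 at 12 h, with the lowest late array still above the highest early one (change 4.12 ± 0.87, adjusted p = 0.00723). Expansins loosen walls during growth. Of 18 measured, of which 7 were dim at both times, 2 were higher and 2 lower (median 0.76). With 11.1% and 6.38% of all probe sets called in those directions, these counts are no result about the family. EXLA1 had 3962, 922 and 665 at 48 h, against 59.1, 38.9 and 49.7 at 12 h, with 48 h replicate 1 far above the other late arrays (change 4.79 ± 0.75, adjusted p = 0.00134). EXPA4 changed by 1.0 ± 0.30, a call lost when any array but 12 h replicate 1 was left out (log2 changes 0.73 to 1.03). EXPA16 had 49.0, 69.6 and 101 at 48 h, against 1161, 375 and 528 at 12 h (change -3.13 ± 0.71, adjusted p = 0.0102), and EXPA9 changed by -1.87 ± 0.43, adjusted p = 0.0114. Of 5 measured pectin enzymes, only GAUT15, a galacturonosyltransferase family gene, was called, with a change of 1.03 ± 0.29, and that call was lost when any array but 48 h replicate 1 or 48 h replicate 2 was left out (log2 changes 0.76 to 1.08). With 11.1% of all probe sets called higher, 1 of 5 is no result about that list.

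**Figure D2:**
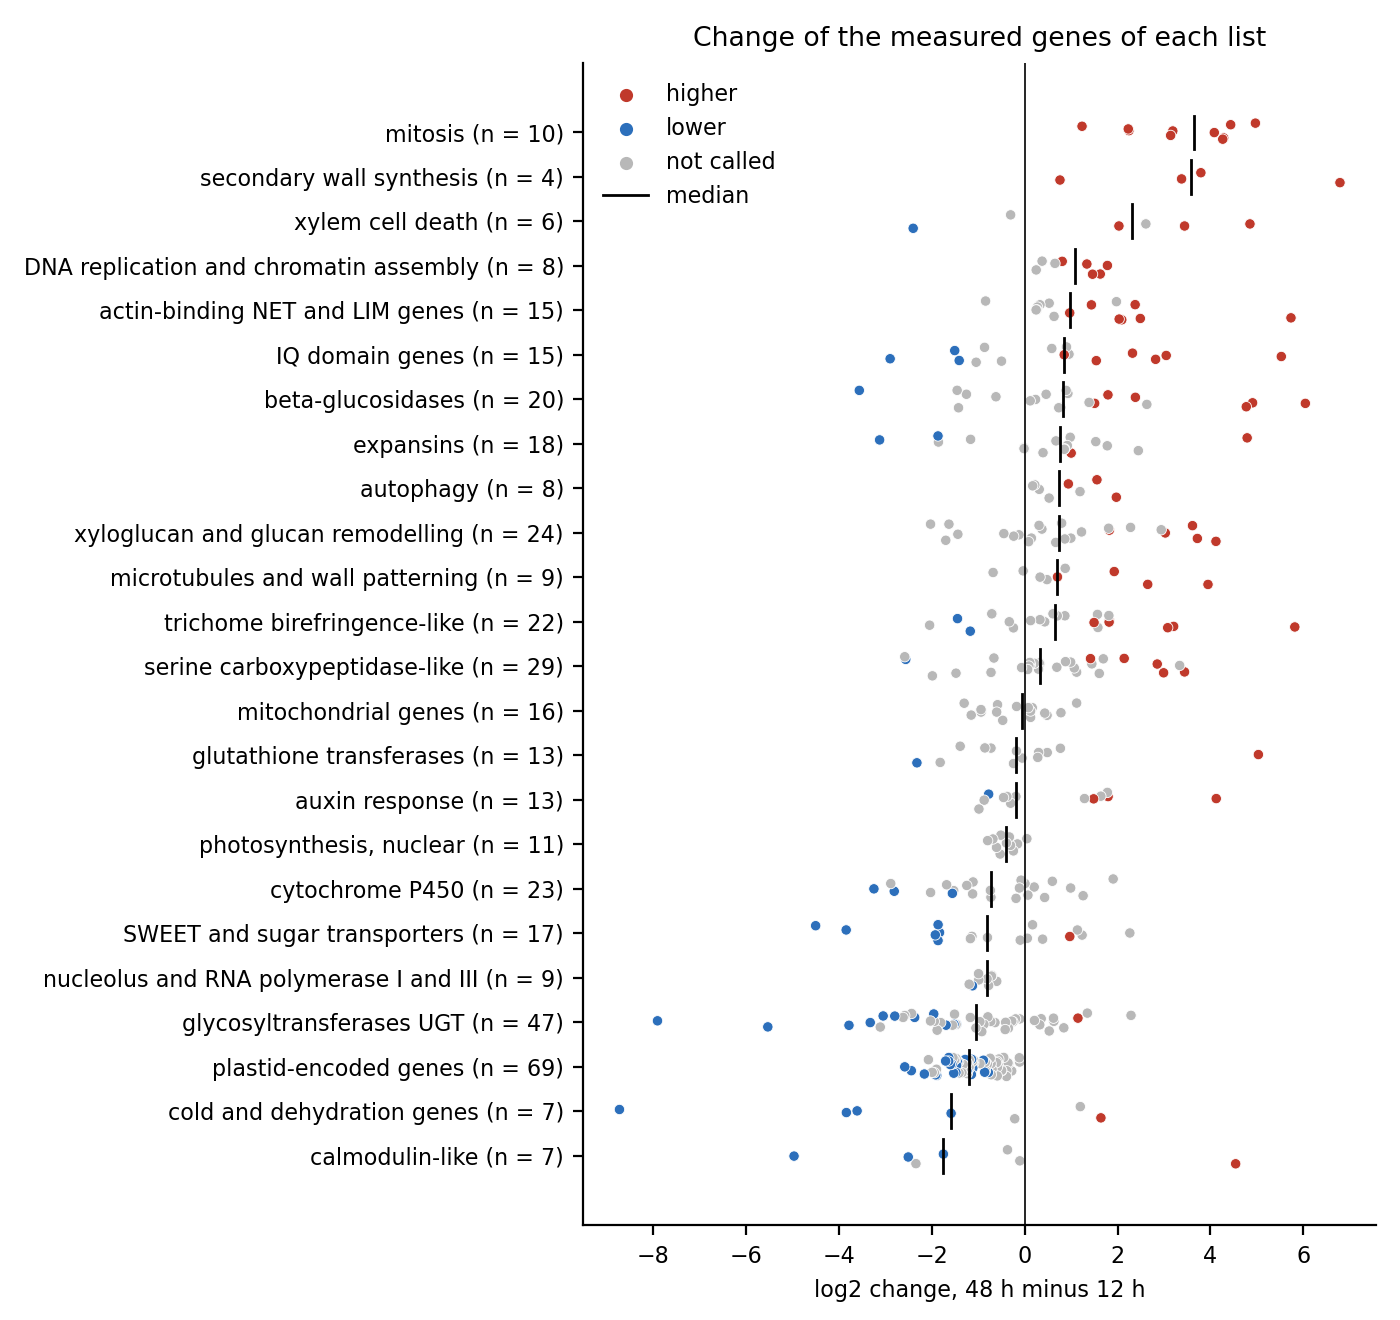
Each point is 1 measured gene, placed by its log2 change, 48 h minus 12 h, on the x axis, with 1 row per gene list and the number of measured genes in brackets. Red points were called higher, blue points lower and grey points were not called, and the black bar is the list's median. Mitosis (median 3.64) and secondary wall synthesis (3.59) stand at the top, and plastid-encoded genes, cold and dehydration genes and calmodulin-like genes at the bottom.

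The cell division genes that could be matched were higher at 48 h. limma called all 10 measured mitosis genes higher, of 77 names written and beside 11.1% of all probe sets. Their median log2 change was 3.64, with a range from 1.23 to 4.97. AUR2, an Aurora kinase gene, had signals of 1819, 1514 and 1954 at 48 h, against 60.0, 36.9 and 79.1 at 12 h (change 4.97 ± 0.65, adjusted p = 0.000493). AUR1 had 1768, 1311 and 1581 at 48 h, against 79.7, 53.6 and 116 at 12 h (change 4.29 ± 0.57, adjusted p = 0.000518). Late and early arrays formed tight, separate groups for both kinases. 3xHMG-box2, which binds mitotic chromosomes, had 2378, 2956 and 3717 at 48 h, against 124, 125 and 166 at 12 h (change 4.44 ± 0.56, adjusted p = 0.000416). UBC20, a ubiquitin-conjugating enzyme gene of dividing cells, had 4082, 4376 and 4290.0 at 48 h, against 259, 256 and 237 at 12 h (change 4.08 ± 0.50, adjusted p = 0.000358). The spindle checkpoint genes BUBR1 and BUB3.1 changed by 4.27 ± 0.77 and 2.25 ± 0.43, and HTR12, the centromeric histone gene, by 2.23 ± 0.44. AUR3 changed by 3.14 ± 0.81, a call lost without 48 h replicate 2 (3.09) or 48 h replicate 3 (3.0) or 12 h replicate 3 (2.09), and UBC19 by 1.23 ± 0.32, a call lost without 48 h replicate 3 (1.13) or 12 h replicate 1 (1.15). Over 12, 24, 36 and 48 h the mean signals of AUR2 were 58.7, 743, 1976 and 1763, and those of UBC20 were 251, 1814, 4031 and 4249.  Outside the list, and chosen after their values were seen, TOPII (topoisomerase II) changed by 4.28 ± 0.55, Haspin, a mitotic histone kinase gene, by 2.72 ± 0.38 and KINESIN-12B, a motor of the cell plate, by 3.52 ± 0.84.

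Of 8 measured genes of DNA replication and chromatin assembly, 5 were called higher and 0 lower (median 1.07), beside 11.1% and 6.38% of all probe sets. PRL, a subunit of the replicative helicase, had 908, 788 and 1063 at 48 h, against 377, 271 and 183 at 12 h (change 1.78 ± 0.38, adjusted p = 0.0077). The histone H2B gene HTB2 had 3064, 3396 and 3621 at 48 h, against 1055, 1384 and 875 at 12 h (change 1.63 ± 0.24, adjusted p = 0.000948), and HTB11 changed by 1.46 ± 0.33, adjusted p = 0.00977. POLA3, a primase subunit gene, changed by 1.34 ± 0.30, adjusted p = 0.0104. HTB1 changed by 0.81 ± 0.25, a call lost when any array but 12 h replicate 1 was left out (log2 changes 0.66 to 0.85).

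**Figure D3:**
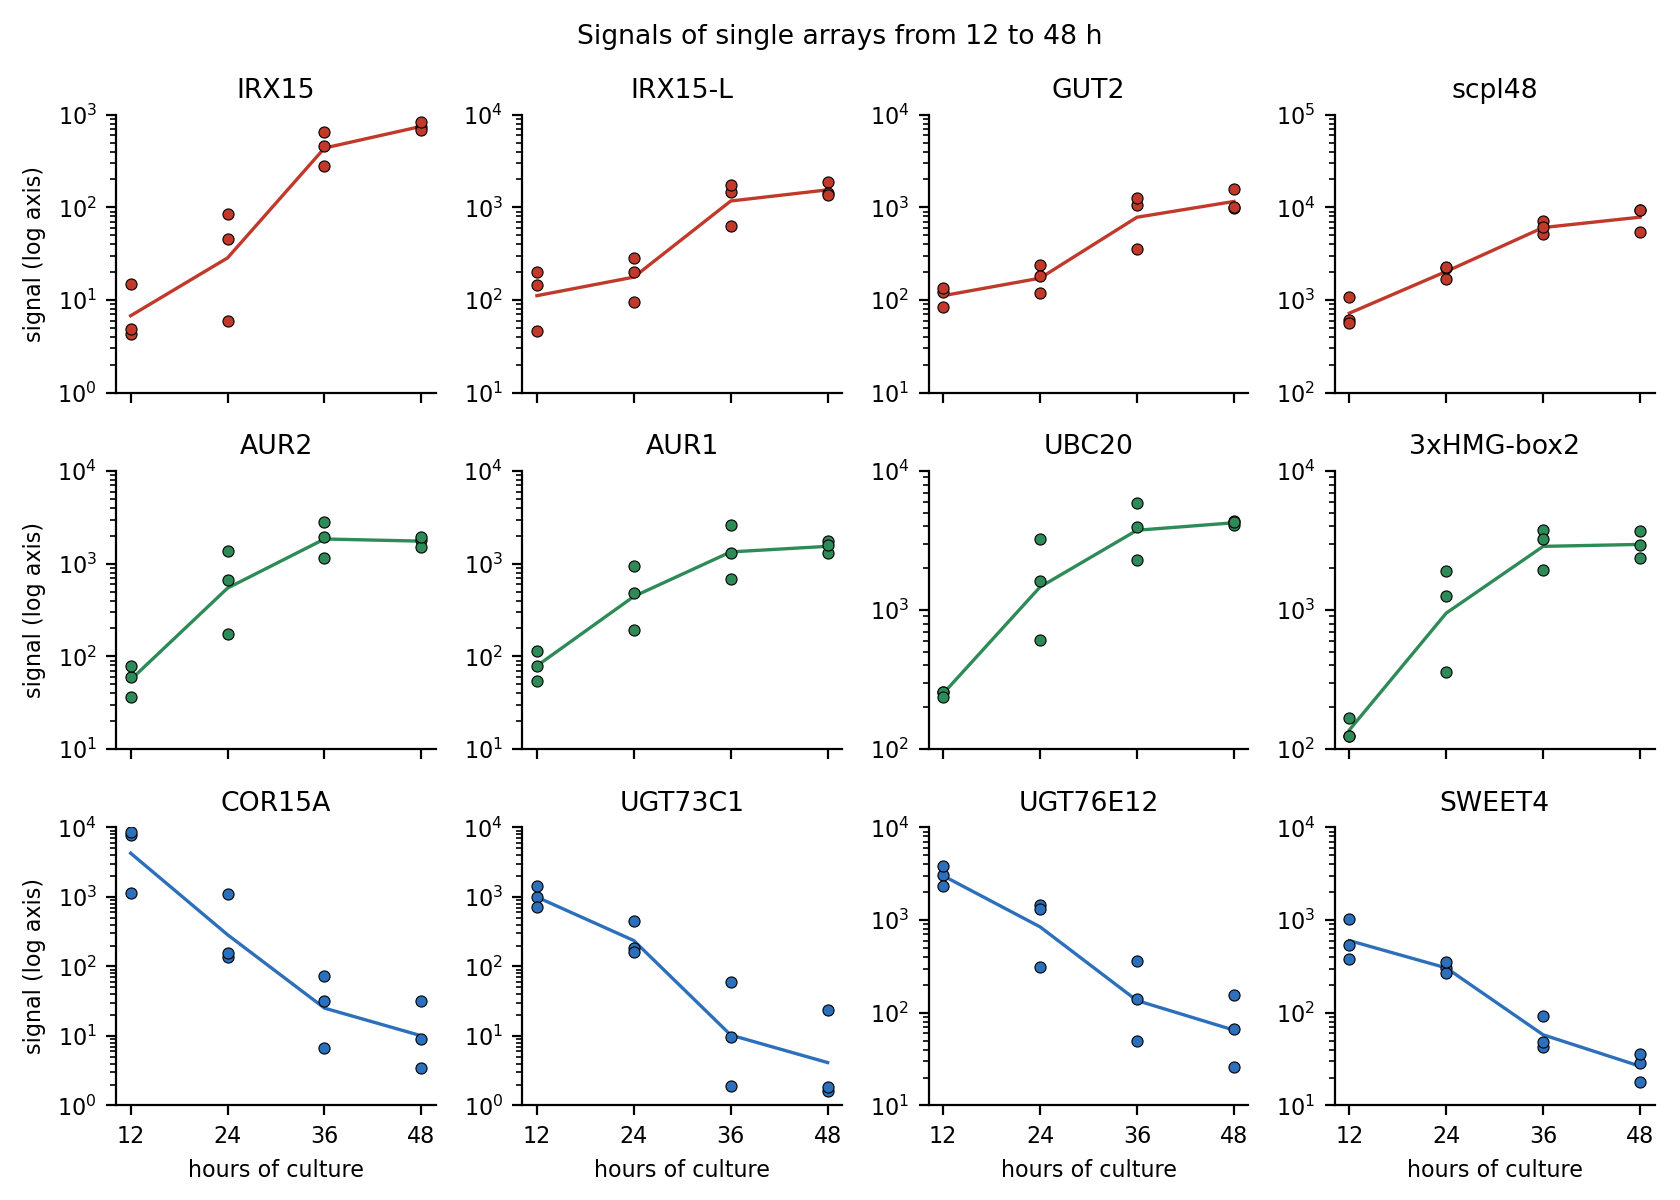
Signals on a log axis are plotted against hours of culture from 12 to 48 h for 12 genes, with 1 point per array (3 per time) and a line through the geometric means. The wall and protease genes of the top row climb most between 24 and 36 h or steadily, the mitosis genes of the middle row climb between 12 and 36 h, and the genes of the bottom row decline throughout.

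Some genes of the cytoskeleton were also higher at 48 h. Microtubules guide both the spindle and the patterned wall. Of 9 measured microtubule genes, 4 were higher and 0 lower (median 0.71), beside 11.1% and 6.38% of all probe sets. Median centring called 3 higher, and the block called 1 lower. The beta-tubulin gene TUB1 had 549, 553 and 532 at 48 h, against 23.5, 48.9 and 38.2 at 12 h (change 3.95 ± 0.52, adjusted p = 0.000518), and TUB7 had 4921, 4581 and 5030.5 at 48 h, against 1069, 774 and 555 at 12 h (change 2.65 ± 0.55, adjusted p = 0.0064). TUB6 changed by 1.93 ± 0.32, adjusted p = 0.00173, and SPR1, a microtubule-associated protein gene, by 0.71 ± 0.19, a call lost when any array but 48 h replicate 2 was left out (log2 changes 0.63 to 0.72). Other tubulins stayed close to their early level, among them TUB9 (0.33 ± 0.23, adjusted p = 0.371) and TUA1 (-0.03 ± 0.24, adjusted p = 0.946). NET and LIM proteins bind actin filaments. Of 15 measured NET and LIM genes, in a list drawn up after values were seen, 7 were higher and 0 lower (median 0.97). These counts stand beside the same shares of all probe sets. WLIM1 had 2910.5, 2834 and 3133 at 48 h, against 805, 786 and 529 at 12 h (change 2.09 ± 0.32, adjusted p = 0.00131), and NET3C had 131, 158 and 218 at 48 h, against 4.34, 1.51 and 4.57 at 12 h (change 5.74 ± 1.04, adjusted p = 0.00314). PLIM2b, WLIM2a, NET1A and WLIM2b changed by 2.49 ± 0.33, 2.38 ± 0.47, 2.03 ± 0.32 and 0.97 ± 0.22. NET3A changed by 1.44 ± 0.45, a call lost when any 1 of the 6 arrays was left out (log2 changes 1.21 to 1.59).

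IQ domain (IQD) proteins bind calmodulin, and several associate with microtubules. Of 15 measured IQD genes, 6 were higher and 3 lower (median 0.85), beside 11.1% and 6.38% of all probe sets. That list was drawn up after values were seen. IQD30 had 710.2, 892 and 1029 at 48 h, against 106, 203 and 86.2 at 12 h (change 2.82 ± 0.40, adjusted p = 0.000748), and IQD31 had 3032, 2369.6 and 3162 at 48 h, against 1188, 1038 and 746 at 12 h (change 1.54 ± 0.28, adjusted p = 0.00311). The symbol iqd33 changed by 5.53 ± 0.84, adjusted p = 0.00117 against dim early signals. IQD22 was among the lower ones, with 179.6, 243 and 106 at 48 h, against 2100.5, 1345 and 680.5 at 12 h (change -2.90 ± 0.59, adjusted p = 0.00565), as was IQD24 (-1.41 ± 0.24, adjusted p = 0.00209). Calls less firm were those of IQD18 (lost when any array but 48 h replicate 3 or 12 h replicate 3 was left out (log2 changes 2.70 to 2.81)), IQD26 (lost when any array but 48 h replicate 2 or 12 h replicate 1 was left out (log2 changes 1.97 to 2.26)), iqd32 (lost without 48 h replicate 1 (0.75) or 48 h replicate 3 (0.81) or 12 h replicate 2 (0.81)) and iqd21 (lost when any array but 48 h replicate 1 or 12 h replicate 3 was left out (log2 changes -1.53 to -1.12)), and the call of iqd21 was also lost with the replicate block (adjusted p = 0.0511). The higher count was 3 without 48 h replicate 1 or without 12 h replicate 2, and 3 after median centring. RALF peptides are secreted signals that act on growth and the wall. Their list too was drawn up after values were seen, and 5 of its 11 genes were dim at both times. Its counts stand beside the same 11.1% and 6.38% of all probe sets. Of 11 measured, RALFL24 (2.74 ± 0.48, adjusted p = 0.00258), RALFL31 (1.87 ± 0.29, adjusted p = 0.00132) and RALFL22 (1.76 ± 0.38, adjusted p = 0.00763) were higher and RALFL32 (-2.54 ± 0.44, adjusted p = 0.00251) was lower.

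A pair of enzyme families that add and remove glucose had calls mostly in opposite directions. The family that removes glucose was picked after its values were seen. UGT enzymes attach sugars to hormones and defence compounds. Of 47 measured UGT genes, 11 were lower and 1 higher at 48 h, beside 6.38% and 11.1% of all probe sets. Their median change was -1.05, and 11 of the 47 were dim at both times. The replicate block called 17 lower, and median centring called 18 lower and 0 higher. UGT73C1 had signals of 1.61, 23.9 and 1.84 at 48 h, against 984, 709 and 1416 at 12 h, with 1 late array less low than the other two (change -7.91 ± 1.18, adjusted p = 0.000995). UGT76E12 had 26.0, 156 and 67.7 at 48 h, against 3094, 2327 and 3804 at 12 h (change -5.53 ± 1.01, adjusted p = 0.00326). UGT76E11 had 128, 184 and 45.1 at 48 h, against 1122, 939 and 1018 at 12 h (change -3.33 ± 0.44, adjusted p = 0.000546). The early arrays of all 3 were high, and the groups did not overlap. UGT84A3 (-3.05 ± 0.67, adjusted p = 0.00878), UGT85A3 (-2.80 ± 0.56, adjusted p = 0.00535), UGT71C5 (-1.47 ± 0.32, adjusted p = 0.00915) and UGT74D1, which can glucosylate auxin (-1.96 ± 0.42, adjusted p = 0.00813), were also lower. The call of UGT76B1 (-3.79 ± 1.14), which glucosylates isoleucic acid, was lost when any 1 of the 6 arrays was left out (log2 changes -4.02 to -3.50). UGT74B1, of glucosinolate synthesis, changed by -2.37 ± 0.56 and its call was lost without 12 h replicate 2 (-2.08). UGT76C2, a cytokinin glucosyltransferase gene, changed by -1.52 ± 0.39, lost without 48 h replicate 3 (-1.41) or 12 h replicate 1 (-1.48) or 12 h replicate 3 (-1.48). UGT85A2 changed by -1.69 ± 0.50, lost when any array but 48 h replicate 2 or 12 h replicate 1 was left out (log2 changes -1.69 to -1.35). The single higher gene, UGT85A4, changed by 1.15 ± 0.35, lost when any array but 48 h replicate 3 or 12 h replicate 3 was left out (log2 changes 0.80 to 1.08), and also lost with the replicate block (adjusted p = 0.0814).

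Of 20 measured beta-glucosidase genes (BGLU), which release such sugars, 6 were higher and 1 lower (median 0.83). That list was drawn up after values were seen, and 7 of the 20 were dim at both times. With 11.1% of all probe sets called higher and 6.38% lower, 1 of 20 lower is no result about the family. BGLU15, which hydrolyses flavonol glucosides, had 4626, 4921 and 6488 at 48 h, against 107, 71.3 and 67.3 at 12 h (change 6.05 ± 0.70, adjusted p = 0.000266). BGLU33 had 14509, 7753 and 7329 at 48 h, against 385, 307 and 258 at 12 h (change 4.91 ± 0.57, adjusted p = 0.000272), and BGLU28 had 4412, 7542 and 1154 at 48 h, against 90.0, 131 and 159 at 12 h (change 4.77 ± 1.02, adjusted p = 0.00762). These 3 genes were bright in every late array and low in every early one, and 48 h replicate 3 was the lowest late array for BGLU28. BGLU41 (2.38 ± 0.30, adjusted p = 0.000416) and BGLU25 (1.79 ± 0.32, adjusted p = 0.00293) were also called higher. BGLU16 changed by 1.51 ± 0.43, a call lost when any array but 12 h replicate 2 or 12 h replicate 3 was left out (log2 changes 1.1 to 1.57), and the lower gene BGLU27 by -3.56 ± 1.1, a call lost when any array but 48 h replicate 3 or 12 h replicate 1 was left out (log2 changes -3.46 to -2.91). BGLU45 and BGLU46, known to act on monolignol glucosides, changed by -0.62 ± 0.65 (adjusted p = 0.57) and -1.46 ± 0.95 (adjusted p = 0.336), and neither passed. The 2 families were not tested against each other.

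**Figure D4:**
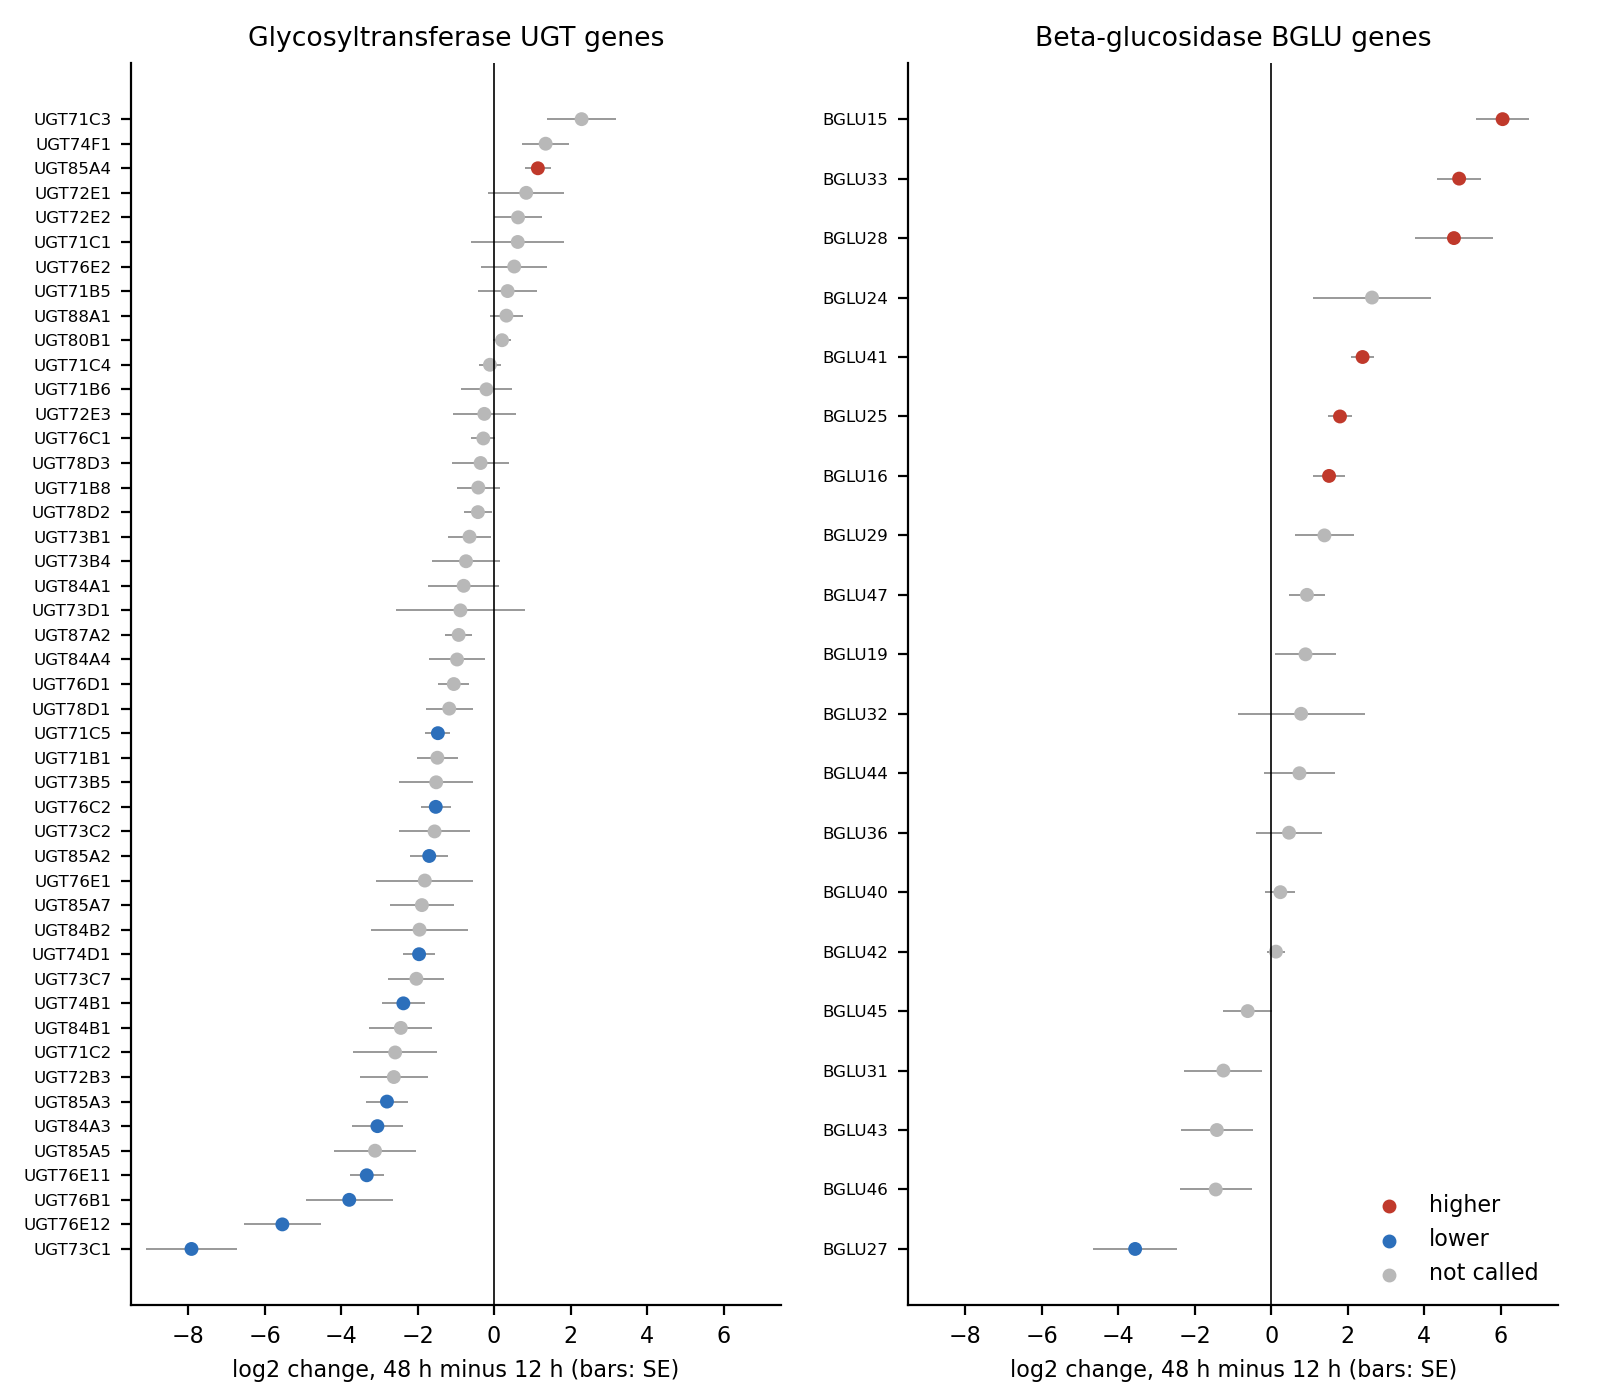
Log2 changes, 48 h minus 12 h, of 47 UGT genes on the left and 20 BGLU genes on the right, with 1 row per gene and bars for the standard error. Red points were called higher, blue points lower and grey points were not called. Blue points fill the lower part of the UGT panel (11 genes), and red points the upper part of the BGLU panel (6 genes).

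Several genes known for cold and dehydration responses were high early and low late. Of 7 measured cold and dehydration genes, in a list drawn up after values were seen, 4 were lower at 48 h and 1 higher (median -1.59). Over all probe sets 6.38% were called lower and 11.1% higher. COR15A, which encodes a chloroplast protein that protects membranes in the cold, had signals of 9.11, 3.47 and 32.1 at 48 h, against 7858, 1135 and 8699 at 12 h. It had the largest decrease among called probe sets with 1 gene, a change of -8.73 ± 1.15, adjusted p = 0.000516, and 12 h replicate 2 was well below the other early arrays. COR15B had 49.5, 16.7 and 31.5 at 48 h, against 343, 296 and 754 at 12 h (change -3.84 ± 0.47, adjusted p = 0.000359). LTI30, a dehydrin gene, had 89.8, 166 and 172 at 48 h, against 1484, 814 and 3865 at 12 h (change -3.61 ± 0.74, adjusted p = 0.00588), and RD2 changed by -1.59 ± 0.23, adjusted p = 0.000923. HVA22C changed by 1.64 ± 0.40, a call lost without 48 h replicate 2 (1.42) or 48 h replicate 3 (1.54) or 12 h replicate 3 (1.4). STZ, a zinc-finger repressor of stress responses, had 26.9, 71.1 and 44.3 at 48 h, against 388, 1578 and 2407 at 12 h (change -4.70 ± 0.90, adjusted p = 0.00421). TINY2, a DREB-type factor gene, had 45.3, 30.8 and 122 at 48 h, against 402, 254 and 462 at 12 h (change -2.70 ± 0.53, adjusted p = 0.00502). JMT, the jasmonic acid methyltransferase gene, was the 1 called gene of 6 in the jasmonate and wounding list, with a change of -2.49 ± 0.77, and its call was lost when any array but 12 h replicate 3 was left out (log2 changes -2.80 to -1.95). The block called 2 genes of that list lower. With 6.38% of all probe sets called lower in the main test, 1 of 6 is no result about the jasmonate and wounding list.

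Of 7 measured calmodulin-like calcium sensors (CML), 3 were lower and 1 higher (median -1.75), beside 6.38% and 11.1% of all probe sets. That list was drawn up after values were seen. CML41 had 169.9, 212 and 119 at 48 h, against 555, 1371 and 1039.9 at 12 h (change -2.51 ± 0.53, adjusted p = 0.00754), and CML42 had 249.5, 206 and 214 at 48 h, against 592, 699.8 and 1018 at 12 h (change -1.75 ± 0.40, adjusted p = 0.01). CML37 had 15.8, 8.81 and 15.5 at 48 h, against 55.3, 788 and 1528 at 12 h, a wide early spread, and its change of -4.97 ± 1.23 was lost without 48 h replicate 2 (-4.69) or 12 h replicate 2 (-4.49) or 12 h replicate 3 (-4.01). CML30 was the higher one, with 6029, 2299.6 and 1275 at 48 h, against 94.6, 138 and 107 at 12 h (change 4.54 ± 0.61, adjusted p = 0.00056). Sugar carriers gave mostly lower calls, with 6 of 17 genes called lower and 1 higher (median -0.80), beside the same shares of all probe sets. SWEET4, which exports sugars, had 28.7, 36.2 and 17.9 at 48 h, against 1039.6, 385 and 544 at 12 h (change -4.50 ± 0.51, adjusted p = 0.000253). SWEET11, which loads sucrose towards the phloem, had 72.6, 58.4 and 37.4 at 48 h, against 1063, 636 and 698 at 12 h (change -3.85 ± 0.29, adjusted p = 0.000125), and SWEET1 had 64.2, 78.3 and 64.9 at 48 h, against 362, 286 and 173 at 12 h (change -1.93 ± 0.34, adjusted p = 0.00277). The calls of SWEET6 (-1.87 ± 0.46, lost without 48 h replicate 1 (-1.58) or 12 h replicate 2 (-1.68)), SWEET2 (-1.87 ± 0.58, lost when any array but 12 h replicate 1 was left out (log2 changes -2.0 to -1.27)) and SFP1 (-1.83 ± 0.56, lost when any array but 12 h replicate 1 was left out (log2 changes -1.91 to -1.34)) were less firm. SWEETIE, which matched by name only and is not a SWEET carrier, was the higher one (0.97 ± 0.25, lost without 48 h replicate 1 (0.83) or 48 h replicate 3 (0.93) or 12 h replicate 2 (0.88)), with 2 called higher by the block and 0 after median centring or quantile normalization. The lower count was 3 without 48 h replicate 1 or without 12 h replicate 2.

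Of 13 measured glutathione transferases, GSTF4 was called higher and GSTU16 lower (median -0.18), and beside the 11.1% and 6.38% of all probe sets these counts are no result about the family. GSTF4 had 4463, 942 and 853 at 48 h, against 70.4, 37.1 and 39.1 at 12 h, with 48 h replicate 1 above the other late arrays (change 5.03 ± 0.61, adjusted p = 0.000337), and the GSTU16 change of -2.32 ± 0.58 was lost when any array but 48 h replicate 2 or 12 h replicate 3 was left out (log2 changes -2.22 to -1.95). Of 23 cytochrome P450 genes, 3 were lower (median -0.73), beside 6.38% of all probe sets, and the replicate block called 6 lower. Of the 23, 12 were dim at both times, so the median rests largely on dim signals. CYP71B26 had 92.1, 192 and 55.2 at 48 h, against 479, 697 and 1009 at 12 h (change -2.81 ± 0.51, adjusted p = 0.00327). CYP71B34 changed by -1.56 ± 0.38, lost without 48 h replicate 1 (-1.4) or 48 h replicate 3 (-1.46) or 12 h replicate 3 (-1.42), and CYP71B29, dim at both times, by -3.25 ± 1.0, lost when any array but 12 h replicate 3 was left out (log2 changes -3.54 to -2.70). The count was 1 without 48 h replicate 1 or without 48 h replicate 3. Of 11 defence genes, 2 were called higher and 1 lower, which beside the 11.1% and 6.38% of all probe sets is no result about the list. The called members were defensin-type genes and went both ways. LCR69 had 5719.8, 9861 and 10694 at 48 h, against 2509, 1539.5 and 2142 at 12 h (change 2.06 ± 0.33, adjusted p = 0.00149), and PDF2.1 had 1701, 9314 and 13031 at 48 h, against 166, 465 and 606 at 12 h (change 4.04 ± 1.01, a call lost without 48 h replicate 2 (3.71) or 48 h replicate 3 (3.47) or 12 h replicate 1 (3.48)). LCR67 had 1.96, 9.91 and 58.1 at 48 h, against 175, 490.0 and 1609 at 12 h (change -5.63 ± 1.67, a call lost when any array but 48 h replicate 3 or 12 h replicate 1 was left out (log2 changes -5.67 to -4.43)), and the block called 3 of the list lower.

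Lower calls among plastid-encoded transcripts fell on genes for photosynthesis. All 69 measured plastid genes had a change below 0 (median -1.20). In that direction 37 had groups that did not overlap and 23 were called, against 16% and 6.38% of all probe sets. All 23 lay among the 47 genes for photosynthesis (median -1.35), and 0 of 20 genes for the plastid's own RNA polymerase, ribosome and RNA maturation were called (median -0.59). With the replicate block the counts were 39 and 3. Of the 20, 1 had an unadjusted p under 0.05. The 2 functional groups were split after values were seen and were not tested against each other. psbC, a photosystem II antenna protein gene, had 612, 1030.2 and 1017 at 48 h, against 3929.6, 4860.1 and 7239 at 12 h (change -2.58 ± 0.40, adjusted p = 0.00118). psbD, for a photosystem II core protein, had 155, 253 and 376 at 48 h, against 892, 1107 and 2399 at 12 h (change -2.44 ± 0.48, adjusted p = 0.00496), and ndhK, for the NDH complex, had 328, 542 and 694 at 48 h, against 1930.1, 1903 and 3007 at 12 h (change -2.16 ± 0.40, adjusted p = 0.00375). Late and early arrays did not overlap for any of these 3. rbcL, the large subunit of Rubisco, changed by -1.64 ± 0.35, adjusted p = 0.00733. rps3, a ribosomal protein gene, had 4025, 8591 and 7776 at 48 h, against 4947, 7939.9 and 8595 at 12 h, with overlapping groups (change -0.11 ± 0.36, adjusted p = 0.877). By complex, 11 of 15 photosystem II genes, 2 of 5 photosystem I genes, 1 of 6 cytochrome b6f genes, 2 of 6 ATP synthase genes and 4 of 10 NDH genes were lower, against 0 of 4 polymerase genes and 0 of 15 ribosomal protein genes. The count of 23 was 12 without 48 h replicate 1 and 10 without 12 h replicate 3, 43 with the block and 33 after median centring. The summed plastid signal ran from 146657 to 245744 at 48 h and from 325520.4 to 450749 at 12 h.

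**Figure D5:**
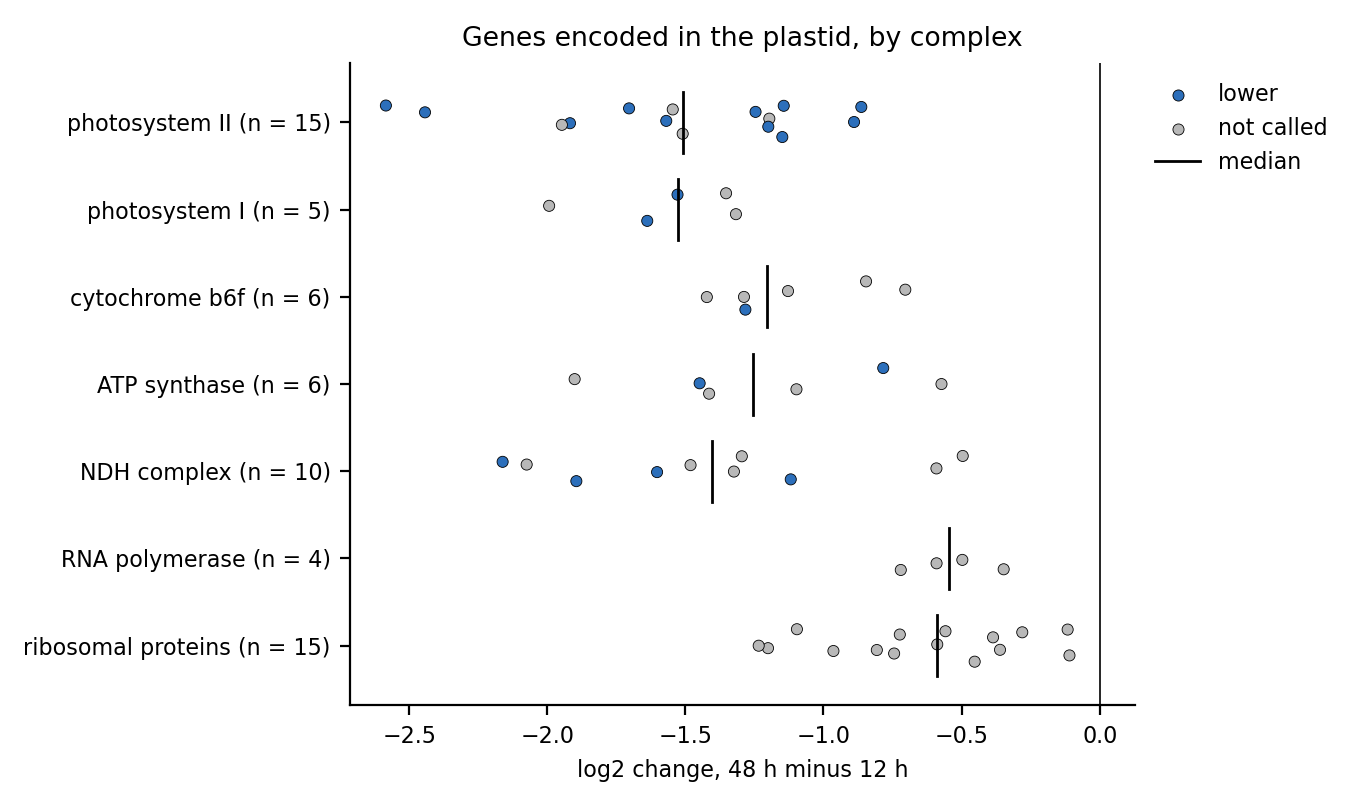
Log2 changes, 48 h minus 12 h, of plastid-encoded genes on the x axis, with 1 row per complex, 1 point per gene and a black bar for the median. Blue points were called lower and grey points were not called. Every point lies left of 0, and the polymerase (median -0.54) and ribosomal protein genes (-0.59) lie closer to 0 than photosystem II (-1.51) or NDH genes (-1.4).

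For photosynthesis genes of the nucleus the median lay nearer 0. limma called 0 of 11 (median -0.39), although 10 of them had a change below 0, and 1 had an unadjusted p under 0.05. The block also called 0, and median centring called 1 lower. RCA, which encodes Rubisco activase, had 1716, 1855 and 1122 at 48 h, against 2034, 3230.4 and 2860.2 at 12 h (change -0.80 ± 0.31, adjusted p = 0.0994), and the light-harvesting gene LHCB4.2 had 273, 352 and 151 at 48 h, against 206, 602 and 221 at 12 h (change -0.31 ± 0.69, adjusted p = 0.818). Of 16 mitochondrial genes, limma called 0 (median -0.05), 2 had an unadjusted p under 0.05, and the block called 1 higher and 2 lower. All 9 measured genes of the nucleolus and of RNA polymerases I and III had changes below 0 (median -0.81). Of these, 1 was called, beside 6.38% of all probe sets. That was YAO, a nucleolar protein gene, with 673, 791 and 849.6 at 48 h, against 2648, 1212 and 1464 at 12 h (change -1.13 ± 0.32), and its call was lost when any array but 12 h replicate 2 was left out (log2 changes -1.22 to -0.80). The block called 4 of the 9 and median centring 7. limma called 0 of 4 measured reference genes, 0 had an unadjusted p under 0.05, and their changes lay between -0.02 and 0.31 (AT4G34270, 0.31 ± 0.25).

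Hormone genes were sparsely measured, with 13 of 48 names written for auxin response, 2 of 40 for cytokinin and 2 of 32 for brassinosteroid. Of the 13 auxin response genes, 3 were higher and 1 lower (median -0.19), beside 11.1% and 6.38% of all probe sets. IAA29, an auxin-induced repressor gene, had 247, 884 and 263 at 48 h, against 31.5, 36.7 and 9.33 at 12 h (change 4.13 ± 0.69, adjusted p = 0.00201). IAA30 had 3093, 4794 and 3156 at 48 h, against 1529, 1661 and 841 at 12 h (change 1.48 ± 0.36, lost without 48 h replicate 2 (1.28) or 12 h replicate 3 (1.18)), and IAA20 had 326, 425 and 312 at 48 h, against 150.0, 98.3 and 69.9 at 12 h (change 1.80 ± 0.51, lost when any array but 12 h replicate 1 was left out (log2 changes 1.53 to 1.88)). IAA18 changed by -0.78 ± 0.24, lost when any 1 of the 6 arrays was left out (log2 changes -0.85 to -0.70), and the block called 2 lower. GH3.3, which conjugates auxin to amino acids, was bright at both times, with 13174, 14733 and 7812 at 48 h, against 24003, 20312 and 19115 at 12 h, and did not pass (-0.87 ± 0.57, adjusted p = 0.337, or 0.0414 with the block). The higher count was 1 without 48 h replicate 2 or without 12 h replicate 3. limma called 0 of 2 measured cytokinin response genes, with 0 at an unadjusted p under 0.05 (RR16, a response regulator gene, 0.81 ± 0.65, adjusted p = 0.45). For brassinosteroid it called 0 of 2, with 1 at an unadjusted p under 0.05. That was the receptor gene BRL1, with 123, 199 and 205 at 48 h, against 60.8, 88.1 and 95.6 at 12 h (change 1.1 ± 0.38, adjusted p = 0.0676), which the block called higher.

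Markers of other cell types were read beside these groups. Of 3 measured procambium markers, MOL1, a receptor kinase gene of the cambium, had 482, 403 and 625 at 48 h, against 331, 159 and 119.9 at 12 h (change 1.42 ± 0.40), and its call was lost when any array but 48 h replicate 2 or 12 h replicate 1 was left out (log2 changes 1.11 to 1.44). CLE41 and CLE44, whose peptide keeps procambial cells dividing, were bright throughout and changed by 0.27 ± 0.33 and 0.92 ± 0.53 without passing, although the block called CLE44 (adjusted p = 0.0334), and median centring called 0 of the 3. Their summed level with MOL1 was 3855 to 4313 at 48 h and 2247 to 3155 at 12 h. In the phloem, OPS had 531, 901 and 1026 at 48 h, against 546, 367 and 157 at 12 h and did not pass (1.32 ± 0.45, adjusted p = 0.0629), whereas SWEET11 was lower. The 4 mesophyll markers gave sums of 1646 to 3114 at 48 h and 2639 to 5246 at 12 h, with 0 called by limma and 1 at an unadjusted p under 0.05. TRY, a regulator of trichome spacing and the only epidermis marker matched by name, had 3.12, 10.7 and 1.71 at 48 h, against 116, 74.1 and 78.1 at 12 h (change -4.50 ± 0.74, adjusted p = 0.00181). FMA, of the guard cell lineage, changed by -1.59 ± 0.47, a call lost when any array but 48 h replicate 3 or 12 h replicate 2 was left out (log2 changes -1.58 to -1.34), and the 3 guard cell markers summed to 80.3 to 170.5 at 48 h and 225 to 444 at 12 h. The dividing-cell markers AUR1, AUR2 and UBC20 summed to 7201 to 7825 at 48 h and 346 to 432 at 12 h. They are mitosis genes described above and add no further evidence. The part of any cell type in the changes above was not tested.

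Several large changes lay in loci for which the annotation gives no name. AT2G19970 had signals of 393, 559.8 and 160.3 at 48 h, against 0.94, 1.46 and 2.25 at 12 h (change 7.81 ± 0.79, adjusted p = 0.000173), the largest increase among probe sets with 1 gene. AT1G06170 (7.55 ± 1.06), AT5G02140 (7.30 ± 0.96), AT3G60650 (7.24 ± 1.0), AT3G45710 (7.17 ± 0.96), AT4G21420 (7.05 ± 0.71) and AT1G24030 (6.86 ± 0.72) followed. All of these early means were dim, so the sizes are uncertain while the late signals, at 115.1 or more in every array, are not. Bright late loci with early means above the dim level were AT5G45540 (5.91 ± 0.69), AT1G29520 (5.89 ± 0.62), AT4G02800 (5.83 ± 1.04), AT3G42725 (5.75 ± 0.58) and AT4G15830 (5.73 ± 0.70). AT1G29520 had 16306, 5406 and 3271 at 48 h, against 128, 110.1 and 97.2 at 12 h, and AT4G15830 had 4436, 3646 and 4569 at 48 h, against 109, 103 and 44.2 at 12 h. Among those lower at 48 h, AT2G22880 (-7.43 ± 1.16), AT3G57010 (-6.76 ± 1.11), AT3G48640 (-6.66 ± 1.48), AT1G64360 (-6.36 ± 0.86) and AT3G43250 (-6.11 ± 1.07) were dim at 48 h. ATC, a gene of the family that includes FT and TFL1, had 4.4, 5.15 and 16.7 at 48 h, against 917, 222 and 393 at 12 h (change -5.90 ± 0.85, adjusted p = 0.000817). AT3G04000 had 38.1, 175 and 47.6 at 48 h, against 3861, 3162 and 2905 at 12 h (change -5.59 ± 0.60, adjusted p = 0.000203), and AT3G15650, AT1G67865 and AT1G68570 changed by -5.89 ± 1.14, -4.81 ± 0.59 and -4.75 ± 0.80. Each of these changes was still called when any 1 of the 6 arrays was left out.

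Other lists gave few or no calls. limma called 0 of 4 senescence genes, with 2 at an unadjusted p under 0.05, and the block called 2 lower. SAG29, which encodes a sugar carrier, had 31.0, 24.2 and 36.0 at 48 h, against 121, 62.6 and 609.7 at 12 h (change -2.47 ± 1.07, adjusted p = 0.139, or 0.0147 with the block). The root and callus markers LBD16 and LBD29, both dim at both times, were not called, with 0 of 2 at an unadjusted p under 0.05 (LBD29, -0.99 ± 1.1). The only MYB gene matched by name, MYBC1, changed by -1.97 ± 1.16 (adjusted p = 0.282). Of 2 folding genes limma called 0, with 1 at an unadjusted p under 0.05, and CRT1b, a calreticulin gene, changed by 0.50 ± 0.21 (adjusted p = 0.137). WRKY20, the 1 called gene of 6 WRKY genes, changed by 0.84 ± 0.23, a call lost when any array but 12 h replicate 1 was left out (log2 changes 0.69 to 0.86). The block called 1 WRKY gene lower, and median centring and quantile normalization called 0 higher. With 11.1% of all probe sets called higher in the main test, 1 of 6 is no result about WRKY genes. The list meant for NAC factors held NTL, an NTF2-like gene and not a NAC factor, with 3848, 1384 and 1029 at 48 h, against 83.0, 57.4 and 86.4 at 12 h (change 4.57 ± 0.54, adjusted p = 0.000307).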

How the data were processed

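Total RNA of the disks was made into biotinylated cRNA and hybridised to 1 Affymetrix array per sample, per the labels' protocols. The deposited values are linear intensities. Per the submitters' processing notes the authors used GCOS and MAS5, whose versions were not stated. The mean of each array after trimming 2% at each end was 500.04 to 500.06, so a shift common to most transcripts cannot be seen. The number of arrays limits the precision.

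After 64 control probe sets were left out, log2 intensities of 22746 probe sets, with no offset, filter or further scaling, were fitted with limma 3.58.1 in R 4.3.3. The fit held 5 group means over 15 arrays (10 residual degrees of freedom), and the contrast was 48 h minus 12 h. The two-sided p-values were adjusted by Benjamini-Hochberg over all probe sets. The fit was tested on simulated data. Replicate numbers come from the titles, except for an array of 36 h that has none and was left out of the block. Deviations of the 48 h and 12 h arrays with the same number correlated at 0.153, 0.119 and 0.201 over probe sets that were not dim (0.086, 0.064 and 0.127 over all), and those with different numbers at -0.141 to -0.018 (-0.088 to -0.004). The block over 11 arrays is therefore given beside the main test where it changes a call or moves a count by over 1.5 times.

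Probe sets were named through the platform annotation, in which 13513 had 1 gene, 503 several and 8730 were not listed. Of the first, 13436 were found in the TAIR10.1 table of genes, and 11751 of 13286 named loci had only a locus tag. Where a listed gene had several probe sets, the one of highest mean stood for it. Named genes are the 8 highest and 8 lowest of the called changes without overlap whose higher mean was not dim, the 6 highest and 6 lowest with both means not dim, and up to 3 called genes of each list. Other genes named, and 11 lists drawn up by gene name (beta-glucosidases, carboxypeptidases, IQD, RALF, CML, autophagy, NET and LIM, cold, plastid groups and mitochondria), were picked after their values were seen. A gene family is not reported here. All members and lists were chosen with earlier results of these data known. The alternatives were filters, an offset, other scalings, fewer arrays, the replicate block, a trended robust fit, a 2-fold minimum and leaving out each array.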

Additional observations from a re-analysis of the deposited data

How the results depend on the processing

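The counts of probe sets called, called higher and called lower at 48 h moved with some settings. With the replicate block over 11 arrays 6026 were called, 2566 of them lower, and the same 11 arrays without the block gave 4433, an alternative added after seeing the data. The block over the 6 arrays of 48 h and 12 h, with 2 residual degrees of freedom, gave 1061 (711 higher and 350 lower), and those 6 arrays without it gave 2333 (1537 and 796). Median centring gave 1665 higher and 2559 lower. Leaving out 1 array gave 2348 to 3262 called, 1600 to 2121 higher and 748 to 1141 lower, with the fewest without 48 h replicate 1. Without 48 h replicate 2 there were 965 lower. Fits with fewer arrays hold fewer samples, and otherwise the cause was not tested. Filters, the offset, quantile normalization, the fit without 0 h, the trended robust fit and the 2-fold minimum kept each count within 1.5 times. Of 194 called genes tabulated, 172 kept their call after median centring, 177 after quantile normalization, 192 with the block over 11 arrays, 134 over the 6 arrays of 48 h and 12 h, 80 with the block over those 6, and 143 to 165 with 1 array left out, and 0 reversed in any setting run.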

Other observations

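A few named genes outside the lists were picked after their values were seen and are given as values only. ATMPK13, a MAP kinase gene, had 1726, 1882 and 2839 at 48 h, against 95.1, 53.1 and 56.1 at 12 h (log2 change 5.0 ± 0.55, adjusted p = 0.000226). VPS2.2, of the ESCRT machinery that sorts membrane proteins, had 1958, 2108 and 2646 at 48 h, against 292, 146 and 28.0 at 12 h (change 4.39 ± 0.80, adjusted p = 0.00322), and FU, a kinase gene of cytokinesis, had 1218, 905 and 1139 at 48 h, against 72.3, 50.6 and 49.2 at 12 h (change 4.26 ± 0.44, adjusted p = 0.000187). TON1B, which helps to place the division plane, changed by 2.15 ± 0.26, adjusted p = 0.000325, and EXO, a growth-related gene that responds to brassinosteroid, by 2.51 ± 0.49, adjusted p = 0.0045. SIM, an inhibitor of the mitotic cycle, changed by 2.82 ± 0.72, a call lost without 48 h replicate 1 (2.43) or 12 h replicate 3 (2.37). All 3 late arrays were above all 3 early ones for each of these genes.

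On the lower side, GTR1, a glucosinolate carrier gene, had 309.9, 376 and 565 at 48 h, against 2206, 1390.3 and 3542 at 12 h (change -2.46 ± 0.46, adjusted p = 0.00383), and PRN, a pirin gene, had 27.0, 44.5 and 33.6 at 48 h, against 922, 227 and 1712 at 12 h (change -4.37 ± 0.72, adjusted p = 0.00171). IAGLU, which attaches glucose to auxin, changed by -2.35 ± 0.57, a call lost without 48 h replicate 1 (-1.97) or 48 h replicate 3 (-2.18) or 12 h replicate 2 (-2.17). TET8, a tetraspanin gene, had 738, 1318 and 1316 at 48 h, against 2256, 9481 and 16337 at 12 h, and its change of -2.70 ± 0.80 was lost when any array but 12 h replicate 1 was left out (log2 changes -2.84 to -2.09). Another 1783 called probe sets had no single named gene and were not described here.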
